A study of Mus musculus with 7 samples.

Results

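Transcripts for the collagens that are not typical of cartilage, and for the enzymes and chaperones that process collagen chains, were counted by RNA sequencing in C3H10T1/2 cells after activation of Smoothened (Smo) with purmorphamine. The genes were taken from the deposited table by symbol: every row named Col, a number, the letter a and a number, without the 8 collagens typical of cartilage (Col2a1, Col9a1, Col9a2, Col9a3, Col10a1, Col11a1, Col11a2 and Col27a1), together with 16 genes of collagen processing. This gave 49 of the 18468 genes in the table, of which 33 encode collagen chains. C3H10T1/2 is an established mouse line of mesenchymal cells that can take up osteoblastic, adipogenic or chondrogenic features. All cells were first held in medium without serum for 12 h. Serum was also left out of the 48 h that followed, in which they were exposed either to 2 μM purmorphamine, which binds and activates Smo (4 libraries, replicates 5 to 8), or to the vehicle, 0.02% DMSO (3 libraries, replicates 2 to 4). No source used here says whether the replicates were separate cultures, so that p-values measure only the spread between these libraries, which may be technical.

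Collagens are built from 3 α chains wound into a triple helix. The fibrillar types I, III and V form the fibrils of connective tissue, whereas type IV forms the network of basement membranes, sheets on which epithelia, vessels and muscle rest. Other types decorate fibrils, form beaded filaments or span the cell membrane. Within the endoplasmic reticulum the chains are hydroxylated on proline and lysine and held by a chaperone, and outside the cell their ends are cleaved and the molecules cross-linked by lysyl oxidases. Mesenchymal cells and fibroblasts are a main source of fibrillar collagen.

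The 7 libraries held 14337225 to 14342154 reads each, since the authors had resampled the reads to equal depth. Where no read was found, up to 3 reads (0.209 CPM) remain possible from counting error alone. The response to the agonist was present in every library of the purmorphamine group: Gli1, the transcription factor whose induction marks Hedgehog signaling, had a mean of 10.0 reads with DMSO and 2770.0 with purmorphamine. Of 6 mesenchymal markers all were counted, and their summed reads ran from 111047 to 113994 with DMSO and from 79424 to 82245 with purmorphamine, with 3 higher and 2 lower. The lower sum came from Vim, with means of 80155 and 42480.0 reads, and to a lesser extent S100a4, with 12397 and 9457.5, whereas Pdgfra (10813 and 18903), Thy1 and Ly6a were higher. The 4 endothelial markers summed to 779 to 820 reads with DMSO and 1898 to 2154 with purmorphamine, nearly all of them from Tek. Cdh5 was at 0 in the DMSO libraries and had 21, 26, 22 and 24 reads in the purmorphamine libraries. It passed the filter on low counts only through the purmorphamine libraries, so that its call as higher could hardly fail. Kdr and Pecam1 had means under 4 reads in both groups. The epithelial markers summed to 14 to 22 reads with DMSO and 111 to 136 with purmorphamine, which was almost entirely Cdh1, while Krt8 had a mean under 1 read and Epcam and Krt18 were not analysed here. Haematopoietic markers summed to 10 to 21 reads and the muscle marker Des to 1 to 6 reads over both groups. The part of these markers in the results on collagens was not tested. In bulk RNA, fewer cells that make a transcript and less transcript per cell cannot be told apart.

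Among the purmorphamine libraries, replicate 6 stood apart for the collagens. Of the 21 collagens with a mean of at least 50 reads, it held the highest value among the 4 libraries for 15, and its median deviation from the other libraries was 0.17 on the log2 scale. For the 15 processing genes at that level it was the highest for 6, with a median deviation of 0.060. Replicate 7 stood apart for the processing genes, as the lowest of the 4 libraries for 11 of 15, with a median deviation of -0.17. Without replicate 7 the processing genes had a median log2 fold change of -0.48 in place of -0.53, with 1 called higher and 14 lower in both cases. The counts of called genes were nearly the same without replicate 6, at 7 collagens higher and 15 lower in place of 8 and 15, and 1 processing gene higher and 14 lower as before.

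Purmorphamine changed many of these transcripts, but in most collagens only a little, whereas nearly all processing genes were lower. The quasi-likelihood test of edgeR was applied to the 12388 genes left after filtering out low counts, with p-values adjusted by Benjamini-Hochberg over all of them, and a gene was called where the adjusted p lay under 0.2, the false-discovery rate used in the study. Changes are given as log2 fold changes (log2FC, purmorphamine over DMSO) with their standard errors (SE). Of all genes tested, 31.4% were called higher with purmorphamine and 31.1% lower, 62.5% in all. Of the 33 collagens, 27 passed the filter, and 8 of these (29.6%) were higher and 15 (55.6%) lower. All 16 processing genes passed, and 1 (6.25%) was higher and 14 (87.5%) lower. The median log2FC was -0.12 for the collagens and -0.53 for the processing genes, beside 0.0038 for all genes tested. With a change of at least 1.5-fold as well, where 7.89% of all genes were higher and 7.56% lower, 4 collagens were higher and 7 lower, and no processing gene was higher and 8 were lower. The 8 cartilage collagens, left out by the rule, were all lower, with a median log2 fold change of -1.91. The 6 collagens that did not pass the filter were Col24a1, Col4a6, Col6a4, Col6a5, Col6a6 and Col22a1, none of which exceeded 10 reads in any library. Col4a3 and Col4a4 passed it only through the purmorphamine libraries, so that any test of them could hardly fail to differ, and they are among the 8 higher collagens.

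**Figure D1:**
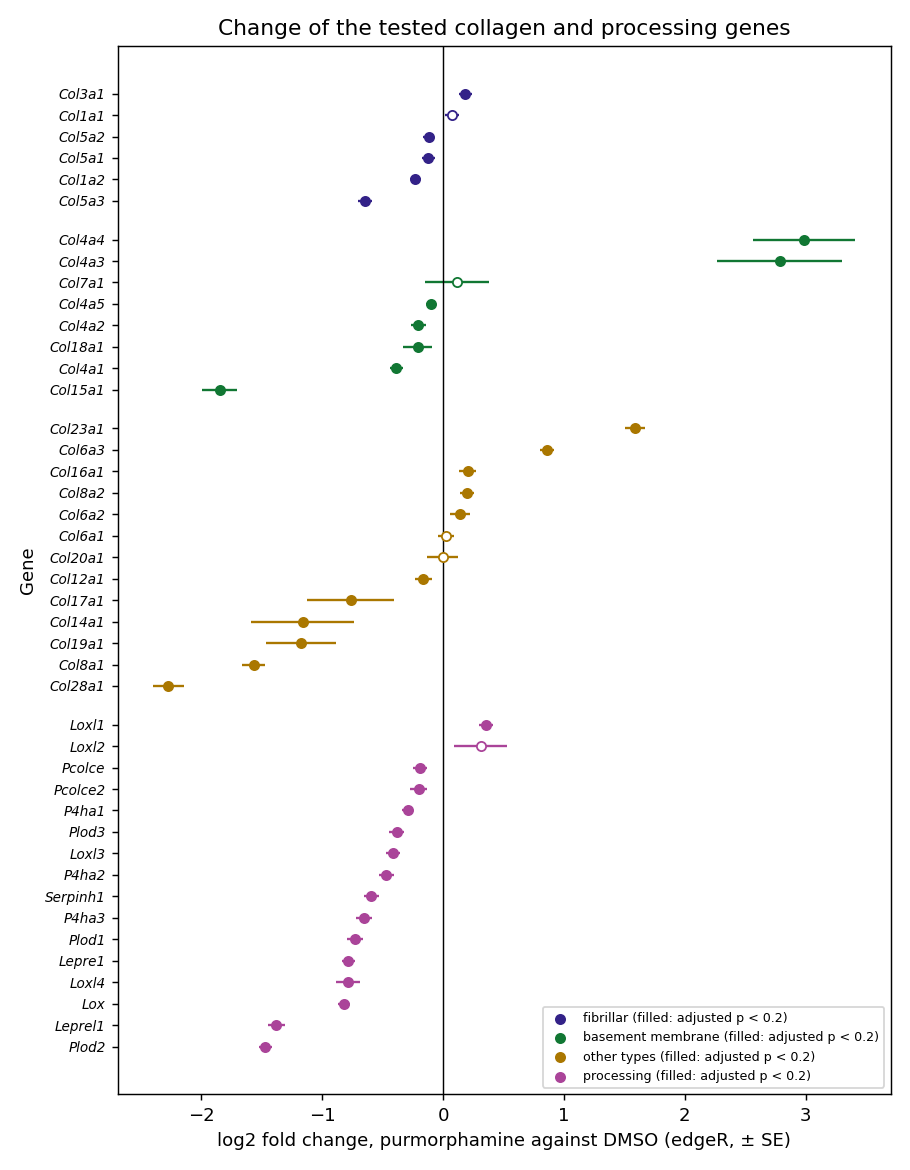
The log2 fold change of each of the 43 tested genes, purmorphamine against DMSO, from edgeR with its standard error as a horizontal bar, in 4 groups: fibrillar, basement membrane and other collagens, and processing genes. Filled points passed an adjusted p under 0.2; in the processing group 14 of 16 points lie to the left of 0 and filled, whereas the collagens run from -2.27 (Col28a1) to 2.99 (Col4a4).

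The fibrillar collagens, which hold most of the collagen reads, changed by little and in opposite directions. Of 7 chains 6 were tested, with 1 higher (16.7%), 4 lower (66.7%) and 1 not called, beside 31.4% higher and 31.1% lower of all genes tested. The median log2FC was -0.12 (range -0.64 to 0.19). Col3a1 (chromosome 1 from 45311538 to 45349706 in GRCm38), the single chain of type III collagen of pliable tissues, had 82275, 84204 and 83503 reads in the DMSO libraries and 95804, 106038, 95778 and 94063 in the purmorphamine libraries. All 4 purmorphamine libraries were above all DMSO libraries, with replicate 6 the highest. Its log2FC was 0.19 (SE 0.0515, edgeR adjusted p = 0.00707), an increase of 1.14-fold. Col1a2 (chromosome 6 from 4504814 to 4541544), the α2 chain of type I collagen, had 71510, 73834 and 74636 reads with DMSO and 64532, 67872, 62185 and 64051 with purmorphamine. Here every purmorphamine library was below every DMSO library. The log2FC was -0.23 (SE 0.0474, edgeR adjusted p = 0.000766). Its partner Col1a1 (chromosome 11 from 94936224 to 94953042), the α1 chain, had 13473, 14478 and 14222 reads with DMSO and 15320, 17315, 14081 and 14451 with purmorphamine. The groups overlapped, since purmorphamine replicates 7 and 8 lay within the DMSO range. The log2FC of 0.07 was not called (SE 0.0609, edgeR adjusted p = 0.341), and it gained a call without purmorphamine replicate 7 (edgeR adjusted p = 0.121) or 8 (0.194) and without TMM scaling (0.121).

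Type V collagen, which lies inside fibrils and sets their diameter, was lower in all 3 of its chains. The largest change was that of Col5a3 (chromosome 9 from 20770050 to 20815067), the α3 chain, which had 2434, 2577 and 2590 reads with DMSO and 1638, 1900, 1533 and 1632 with purmorphamine. The groups were far apart, with means of 2534 ± 86.6 (SD, n = 3) and 1676 ± 157 reads (SD, n = 4). Its log2FC was -0.64 (SE 0.0596, edgeR adjusted p = 1.17e-07). Col5a2 (chromosome 1 from 45374321 to 45503282) had 26813, 26588 and 26137 reads with DMSO and 25127, 25550, 24828 and 25306 with purmorphamine. The groups did not overlap, but the decrease was small, with a log2FC of -0.12 (SE 0.0428, edgeR adjusted p = 0.0292). Col5a1 (chromosome 2 from 27886425 to 28039514) had 8154, 8439 and 8521 reads with DMSO and 7802, 8806, 7646 and 7501 with purmorphamine. Replicate 6 was above every DMSO library and the other three were below. Its log2FC was -0.12 (SE 0.0535, edgeR adjusted p = 0.0679), and the call was lost without TMM scaling (edgeR adjusted p = 0.263) and without DMSO replicate 4 (0.204). Col24a1 had at most 2 reads in any library and was not tested.

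**Figure D2:**
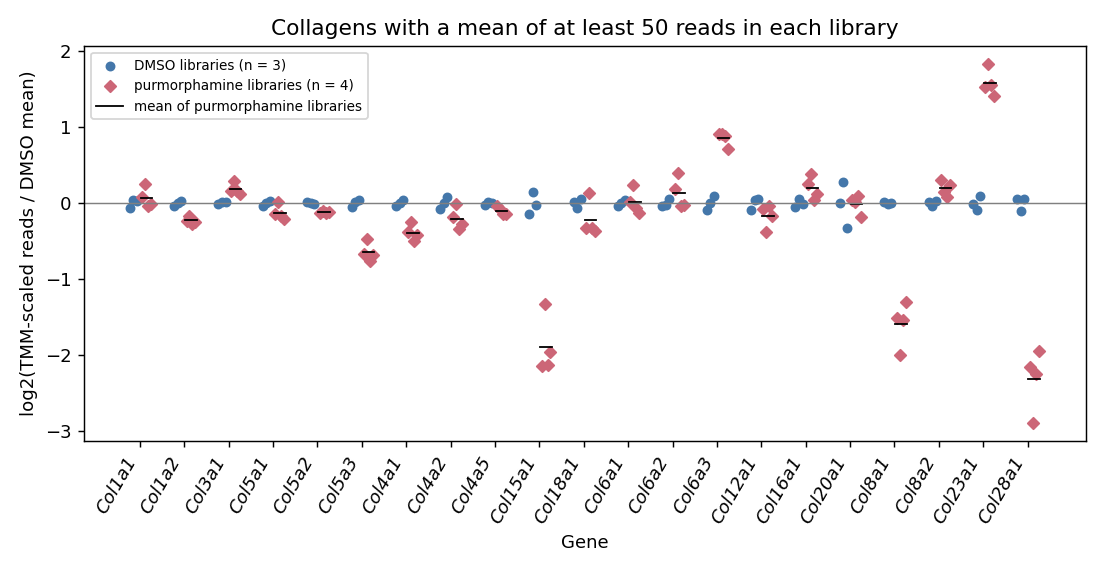
Reads of the 21 collagens with a mean of at least 50 reads in each library, after TMM scaling, as the log2 ratio to the DMSO mean (vertical axis); circles are the 3 DMSO libraries, diamonds the 4 purmorphamine libraries and black lines the mean of the purmorphamine libraries. Most collagens lie near 0, while Col15a1, Col8a1 and Col28a1 lie well below and Col6a3 and Col23a1 well above it in every purmorphamine library.

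Among collagens of the basement membrane and its border, Col15a1 fell most, the common type IV chains fell a little, and a rare pair of type IV chains was higher at very low counts. Of 9 chains 8 were tested, with 2 higher (25.0%), 5 lower (62.5%) and 1 not called, beside 31.4% higher and 31.1% lower of all genes tested. The median log2FC was -0.15 (range -1.85 to 2.99). The 2 higher were Col4a3 and Col4a4, which passed the filter only through the purmorphamine libraries. Without purmorphamine replicate 8, 3 were called lower in place of 5. Col15a1 (chromosome 4 from 47208161 to 47313167) encodes a proteoglycan collagen that links basement membranes to the fibrils beneath. Its reads were 314, 386 and 339 with DMSO and 81, 143, 81 and 92 with purmorphamine. Replicate 6 was the highest of the purmorphamine libraries and still far below the lowest DMSO library. The means were 346 ± 36.6 reads (SD, n = 3) and 99.2 ± 29.6 (SD, n = 4), a log2FC of -1.85 (SE 0.144, edgeR adjusted p = 1.31e-08). Col18a1, its closest relative and the source of endostatin, had 175 ± 6.66 reads (SD, n = 3) with DMSO and 157 ± 28.2 (SD, n = 4) with purmorphamine. Its log2FC of -0.21 was called by a narrow margin (edgeR adjusted p = 0.165) and the call was lost in 8 of 13 alternatives. Col7a1, which forms the anchoring fibrils of skin, was at 19.0 ± 5.29 and 21.2 ± 4.92 reads and was not called (edgeR adjusted p = 0.757).

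The 6 chains of type IV collagen are encoded in 3 pairs of genes that start back to back on opposite strands, and the chains of 1 pair join into the same or related networks. Col4a1 (chromosome 8 from 11198423 to 11312826, minus strand) and Col4a2 (chromosome 8 from 11312805 to 11449287, plus strand) make up the network found in nearly all basement membranes, and their annotated starts overlap by 22 bases. Col4a1 had 8428, 8719 and 8849 reads with DMSO and 6870, 7579, 6262 and 6704 with purmorphamine. The groups did not overlap, and the log2FC was -0.39 (SE 0.0547, edgeR adjusted p = 1.88e-05). Col4a2 had 4700, 4956 and 5189 reads with DMSO and 4490, 5072, 3988 and 4216 with purmorphamine. Replicate 6 lay within the DMSO range, and the log2FC was -0.20 (SE 0.0652, edgeR adjusted p = 0.0170). Col4a5, on the X chromosome, was at 2793 ± 44.4 reads (SD, n = 3) and 2693 ± 105 (SD, n = 4), a log2FC of -0.10 (edgeR adjusted p = 0.0818) whose call was lost without TMM scaling (0.364), without DMSO replicate 3 (0.205) and without purmorphamine replicate 8 (0.205). Its neighbour Col4a6, which starts 1308 bases away, had at most 4 reads in any library.

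The pair Col4a3 and Col4a4 on chromosome 1, whose chains form the network of the kidney filter together with α5, is described here although its counts are low, a choice made after its values were seen. Col4a3 had 0, 4 and 2 reads with DMSO and 15, 17, 10 and 18 with purmorphamine. Col4a4 had 0, 5 and 4 reads with DMSO and 27, 28, 25 and 22 with purmorphamine. In both genes every purmorphamine library was above every DMSO library. The log2FC values of 2.79 (SE 0.518) and 2.99 (SE 0.422) rest on so few reads that they moved between 2.23 and 3.70 and between 2.43 and 3.54 when single libraries were left out, with the lowest value without DMSO replicate 2 in each. Their levels remained far below those of Col4a1. RPKM divides reads by exon length and by the TMM-scaled total of the tested genes in the library. By this measure Col4a4 was at 0.165 with purmorphamine and Col4a1 at 63.2. The starts are separated by 71 bases (chromosome 1 from 82586850 to 82586920), shown because the genes share them, in the direction of Col4a4 and taken from RefSeq (GRCm38.p6). None of the 4 motifs searched in the promoters occurs in them, so no letter is in capitals.
Col4a4 to Col4a3 (chr1:82586850-82586920, minus strand): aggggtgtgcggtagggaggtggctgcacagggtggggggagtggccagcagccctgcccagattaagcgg

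Collagens with a mean under 50 reads, such as Col4a3 and Col4a4, are left aside in this ranking. Among the remaining collagens of the rule, the largest increase (Col23a1) and the largest decrease (Col28a1) were both among the other types. Of 17 chains 13 were tested, with 5 higher (38.5%), 6 lower (46.2%) and 2 not called, beside 31.4% higher and 31.1% lower of all genes tested. The median log2FC was -0.0043 (range -2.27 to 1.59). Col23a1 (chromosome 11 from 51289920 to 51583918) encodes a collagen that spans the cell membrane. It had 920, 880 and 988 reads with DMSO and 2774, 3440, 2790 and 2557 with purmorphamine, a clear separation in every library. The log2FC was 1.59 (SE 0.0828, edgeR adjusted p = 7.35e-11), or 3.01-fold, and with single libraries left out it stayed between 1.51 and 1.65. Its relative Col17a1, of the hemidesmosomes of epithelia, had 12.0 ± 1.0 and 7.25 ± 3.4 reads, a log2FC of -0.76 (SE 0.359) that DESeq2 did not call (adjusted p = 0.275). Col28a1 (chromosome 6 from 7997808 to 8192617), a collagen known mainly from peripheral nerve, had 615, 558 and 613 reads with DMSO and 138, 83, 128 and 160 with purmorphamine. It was the largest decrease among the tested collagens of the rule, with means of 595 ± 32.4 (SD, n = 3) and 127 ± 32.4 reads (SD, n = 4). The log2FC was -2.27 (SE 0.125, edgeR adjusted p = 1.49e-10), or 4.83-fold lower.

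The chains of type VIII collagen, a network of short chains found under endothelia and in the cornea, moved apart. Col8a1 (chromosome 16 from 57624258 to 57754737) had 2596, 2564 and 2563 reads with DMSO and 930, 666, 908 and 1083 with purmorphamine. Its log2FC was -1.57 (SE 0.0976, edgeR adjusted p = 7.29e-10). Col8a2 rose, with 1311 ± 25.2 reads in the DMSO libraries (SD, n = 3), 1553 ± 111 in the purmorphamine libraries (SD, n = 4) and a log2FC of 0.20 (SE 0.0554, edgeR adjusted p = 0.00783). The 3 main chains of type VI collagen, which assemble into beaded filaments around cells, also differed among themselves. Col6a3 (chromosome 1 from 90765923 to 90843971) had 3218, 3456 and 3651 reads with DMSO and 6683, 6715, 6503 and 5869 with purmorphamine. Replicate 8 was the lowest of the purmorphamine libraries and still well above all DMSO libraries. Its log2FC was 0.86 (SE 0.0577, edgeR adjusted p = 1.96e-09), or 1.81-fold. Col6a1 (chromosome 10 from 76708792 to 76726168) had 16178, 16796 and 17027 reads with DMSO and 17421, 20357, 16369 and 15839 with purmorphamine. Purmorphamine replicates 5 and 6 lay above the DMSO libraries, replicate 8 below them and replicate 7 within their range. The log2FC of 0.02 was not called (SE 0.0674, edgeR adjusted p = 0.813), and it was -0.05 without purmorphamine replicate 6. Col6a2 was at 7030 ± 211 and 8004 ± 1225 reads, a log2FC of 0.14 (edgeR adjusted p = 0.175) whose call was lost without replicate 6 (0.488) and in 5 further alternatives. Col6a6 had 1, 1 and 8 reads with DMSO and 10, 10, 6 and 9 with purmorphamine, and Col6a4 and Col6a5 had at most 1 read in any library.

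Of the collagens that decorate fibrils, the abundant ones moved little. Col12a1, which is common in tendon and other loaded tissue, was at 17778 ± 959 reads (SD, n = 3) with DMSO and 16396 ± 1615 (SD, n = 4) with purmorphamine, a log2FC of -0.16 (SE 0.0680, edgeR adjusted p = 0.0591). Col16a1 rose from 1473 ± 60.4 to 1753 ± 197 reads, a log2FC of 0.20 (SE 0.0685, edgeR adjusted p = 0.0217). Its groups did not overlap in the deposited counts, but once the reads were TMM-scaled the groups overlapped, with p = 0.114 in the two-sided exact permutation test (35 assignments). Col20a1 was not called, at 129 ± 27.0 and 132 ± 10.6 reads. Col19a1 and Col14a1 were lower at low counts, from 20.3 ± 5.51 to 9.25 ± 1.5 and from 13.7 ± 6.66 to 6.25 ± 3.4 reads, with log2FC values of -1.17 and -1.16. The call of Col14a1 was lost without DMSO replicate 4 (edgeR adjusted p = 0.260). Col22a1 had at most 2 reads in any library.

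Printed here are the promoters of the 5 collagens with the largest changes among those of the rule with a mean of at least 50 reads. They were picked because these genes moved most and in different directions. Each is the 250 bases before the start of the gene in RefSeq (GRCm38.p6), 5′ to 3′ on the strand of the gene. Capitals mark the GC box GGGCGG, on either strand.
Col23a1 (chr11:51289670-51289919, plus strand): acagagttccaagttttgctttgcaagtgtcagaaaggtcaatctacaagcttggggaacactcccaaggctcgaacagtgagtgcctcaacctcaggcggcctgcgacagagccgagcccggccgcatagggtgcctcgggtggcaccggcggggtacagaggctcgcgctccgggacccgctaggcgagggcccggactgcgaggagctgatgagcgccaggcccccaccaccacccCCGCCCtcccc
Col6a3 (chr1:90843972-90844221, minus strand): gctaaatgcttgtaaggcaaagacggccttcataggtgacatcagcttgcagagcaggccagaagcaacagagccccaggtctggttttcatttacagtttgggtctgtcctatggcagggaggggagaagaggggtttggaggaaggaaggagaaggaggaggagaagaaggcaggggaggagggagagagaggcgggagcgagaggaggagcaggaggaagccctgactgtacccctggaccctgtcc
Col15a1 (chr4:47207762-47208011, plus strand): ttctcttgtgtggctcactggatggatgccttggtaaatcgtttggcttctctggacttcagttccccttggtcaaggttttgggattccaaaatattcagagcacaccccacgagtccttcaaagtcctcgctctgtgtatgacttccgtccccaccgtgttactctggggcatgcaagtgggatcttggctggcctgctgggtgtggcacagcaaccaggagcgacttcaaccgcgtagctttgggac
Col8a1 (chr16:57754738-57754987, minus strand): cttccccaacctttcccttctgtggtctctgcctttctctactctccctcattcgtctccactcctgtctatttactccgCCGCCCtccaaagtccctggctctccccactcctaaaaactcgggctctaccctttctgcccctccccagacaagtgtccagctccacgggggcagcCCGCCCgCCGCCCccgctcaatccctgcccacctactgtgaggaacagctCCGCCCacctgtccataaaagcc
Col28a1 (chr6:8192618-8192867, minus strand): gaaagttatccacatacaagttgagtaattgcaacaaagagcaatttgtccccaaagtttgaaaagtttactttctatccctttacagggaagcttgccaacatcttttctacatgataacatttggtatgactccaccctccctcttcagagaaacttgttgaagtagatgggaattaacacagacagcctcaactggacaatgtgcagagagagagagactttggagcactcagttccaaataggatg
The window of Col8a1 held 4 GC boxes and that of Col23a1 held 1, and none was found in the others. Promoters were found for 37 of the 49 genes, in 40 windows. Of these 65.0% held a GC box, beside 32.7% of the 32851 promoters of that length in the table. CCAAT, a common promoter box, was in 32.5% of the members' windows and in 33.8% of all. ACGTG, the core of the hypoxia response element, was in 22.5% and 16.6%. GACCACCCA, the motif bound by Gli factors, was in none of the 40 windows and in 0.225% of all, which says only that these letters do not occur in these stretches. All motifs were searched on both strands, and a match is no evidence of binding.

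The processing genes were lower as a group, from the first modification of the chains to their cross-linking. Lysyl hydroxylases, which prepare lysines for glycosylation and cross-links, were lower in 3 of 3 genes. Plod2 (chromosome 9 from 92542223 to 92608428), the enzyme of the telopeptide lysines at the ends of the chains, had 10557, 10390 and 10391 reads with DMSO and 3991, 3492, 3926 and 4156 with purmorphamine. No other processing gene had as large a decrease. Its log2FC was -1.47 (SE 0.0541, edgeR adjusted p = 9.42e-13), or 2.77-fold lower. Plod1 (chromosome 4 from 147909753 to 147936767), the enzyme of lysines within the helix, had 1636, 1739 and 1769 reads with DMSO and 1063, 1209, 917 and 1094 with purmorphamine. The log2FC was -0.73 (SE 0.0677, edgeR adjusted p = 1.26e-07). Plod3, which also adds sugars to hydroxylysine, was at 1868 ± 157 reads with DMSO (SD, n = 3) and 1480 ± 115 with purmorphamine (SD, n = 4), with a log2FC of -0.38 (edgeR adjusted p = 9.84e-05).

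The 5 prolyl hydroxylase genes of the rule and the collagen chaperone were all lower. Prolyl 4-hydroxylase, on whose product the stability of the triple helix depends, has 3 alternative catalytic subunits. P4ha3 (chromosome 7 from 100285520 to 100319699) had 626, 625 and 574 reads with DMSO and 403, 415, 365 and 418 with purmorphamine, a log2FC of -0.65 (SE 0.0659, edgeR adjusted p = 3.70e-07). P4ha2 and P4ha1, at 934 ± 5.51 and 2894 ± 59.1 reads with DMSO, were at 696 ± 60.8 and 2441 ± 86.5 with purmorphamine, log2FC values of -0.47 and -0.29. The prolyl 3-hydroxylases modify few prolines of each chain. Leprel1 (chromosome 16 from 25959288 to 26105784; now P3h2) had 666, 690 and 665 reads with DMSO and 285, 280, 237 and 268 with purmorphamine. Its log2FC was -1.38 (SE 0.0694, edgeR adjusted p = 4.87e-11), or 2.60-fold lower. Lepre1 (chromosome 4 from 119232915 to 119248975; now P3h1) had 2661, 2754 and 2783 reads with DMSO and 1604, 1734, 1511 and 1718 with purmorphamine, a log2FC of -0.78 (SE 0.0506, edgeR adjusted p = 1.17e-09). Serpinh1 (chromosome 7 from 99345376 to 99353239) encodes HSP47, the chaperone that binds the folded procollagen helix. It had 8680, 8598 and 9346 reads with DMSO and 6199, 6638, 5321 and 6142 with purmorphamine. The groups were well separated, and the log2FC was -0.59 (SE 0.0606, edgeR adjusted p = 3.99e-07). The groups did not overlap in Serpinh1 or in any of the 3 lysyl, 3 prolyl 4- and 2 prolyl 3-hydroxylase genes of the rule. Purmorphamine lay below DMSO in this way in 20.4% of all genes tested. Leprel2, a relative of Leprel1 that the rule does not include, had 1352 ± 8.14 and 1303 ± 99.8 reads with overlapping groups. Its log2FC of -0.10 was called lower by a narrow margin (edgeR adjusted p = 0.149). Leprel4, also outside the rule, had 1348 ± 80.0 and 1135 ± 76.6 reads without overlap, a log2FC of -0.30 (edgeR adjusted p = 0.000515).

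**Figure D3:**
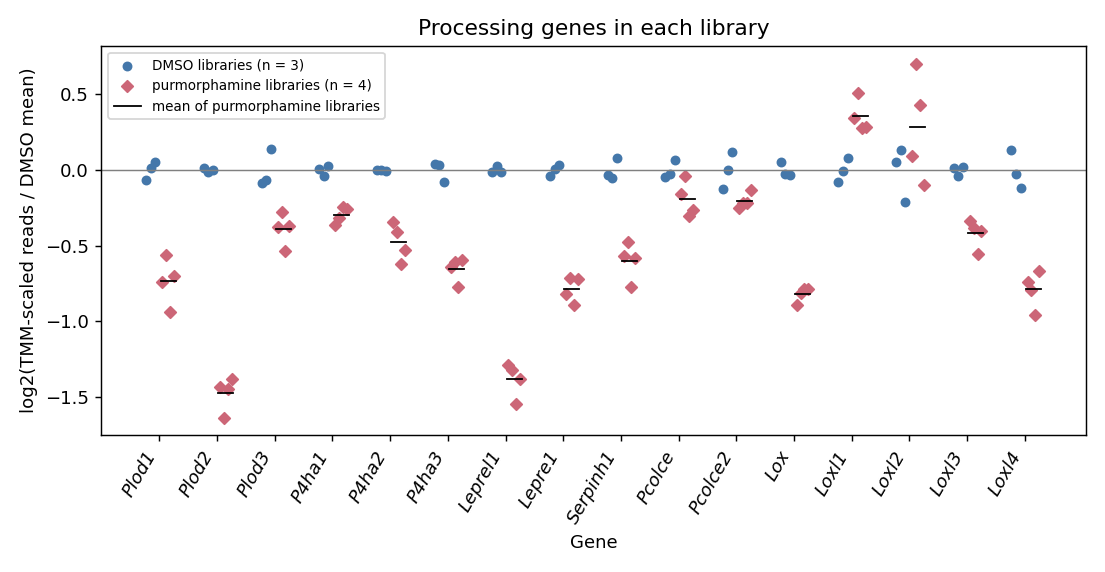
Reads of the 16 processing genes in each library, after TMM scaling, as the log2 ratio to the DMSO mean (vertical axis); circles are the 3 DMSO libraries, diamonds the 4 purmorphamine libraries and black lines the mean of the purmorphamine libraries. Plod2 and Leprel1 lie farthest below 0, and Loxl1 lies above 0 in every purmorphamine library.

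Lysyl oxidases, which start the cross-linking of collagen and elastin outside the cell, did not all move one way. Lox (chromosome 18 from 52516067 to 52529867) had 67914, 64493 and 63767 reads with DMSO and 36391, 38732, 38854 and 39333 with purmorphamine. It had more reads than the other 15 processing genes together in every library. The means were 65391 ± 2215 (SD, n = 3) and 38328 ± 1317 (SD, n = 4), and the log2FC was -0.82 (SE 0.0482, edgeR adjusted p = 3.56e-10), or 1.76-fold lower. Loxl4 (chromosome 19 from 42593982 to 42612813) had 259, 234 and 218 reads with DMSO and 147, 142, 125 and 155 with purmorphamine, a log2FC of -0.78 (SE 0.0988, edgeR adjusted p = 5.22e-06). Loxl3 went from 1150 ± 22.3 to 890.5 ± 59.9 reads, a log2FC of -0.42. Loxl1, which is needed for elastic fibres, was the 1 processing gene that rose, from 1739 ± 94.0 to 2302 ± 183 reads, with a log2FC of 0.36 (SE 0.0594, edgeR adjusted p = 9.60e-05) and no overlap between the groups. Loxl2 had 29.0 ± 3.61 and 37.2 ± 9.29 reads and was not called (edgeR adjusted p = 0.257), but gained a call without purmorphamine replicate 5 (0.197) or 8 (0.118) and without TMM scaling (0.192). The enhancers of the proteinase that removes the C-terminal propeptide fell least. Pcolce was at 8206 ± 324 and 7445 ± 649 reads and Pcolce2 at 492 ± 41.5 and 442 ± 16.6, log2FC values of -0.19 and -0.20. In each the deposited counts of the groups overlapped. On TMM-scaled reads the two-sided exact permutation test gave p = 0.0857 for Pcolce and p = 0.0286 for Pcolce2.

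The groups did not overlap in the deposited counts for 28 of the 43 tested genes, with purmorphamine above in 8 and below in 20, where 29.1% of all genes tested lay above and 20.4% below. In 26 of these the two-sided exact permutation test on TMM-scaled reads gave p = 0.0286, the smallest that 3 against 4 libraries allow. The exceptions were Col16a1 (p = 0.114) and Col8a2 (p = 0.0571), both by the same exact permutation test. Col4a3 and Col4a4 are among the 8 above and among the 26. They passed the filter only through the purmorphamine libraries, so that their separation could hardly fail.

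The summed level of the collagens and that of their processing genes were compared as shares of each library. The 33 collagens took 1.93% ± 0.0367 of the reads (SD, n = 3) with DMSO and 1.97% ± 0.0939 (SD, n = 4) with purmorphamine, a difference smaller than the spread between libraries, and without replicate 6 the difference turned from 0.040 to -0.0049 percentage points. Fibrillar collagens were 1.45% ± 0.0211 and 1.48% ± 0.0699. Basement membrane collagens went from 0.118% ± 0.00355 to 0.0998% ± 0.00798, and in each purmorphamine library the share was below that of every DMSO library. The other types were at 0.362% ± 0.0125 and 0.389% ± 0.0195, with overlapping libraries. Processing genes took 0.753% ± 0.0117 with DMSO and 0.471% ± 0.0131 with purmorphamine, and without Lox, which made up the larger part, 0.297% ± 0.00723 and 0.204% ± 0.0110. The cartilage collagens fell from 0.293% ± 0.00722 to 0.0808% ± 0.00891. The members were summed by their class, so no test is given.

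**Figure D4:**
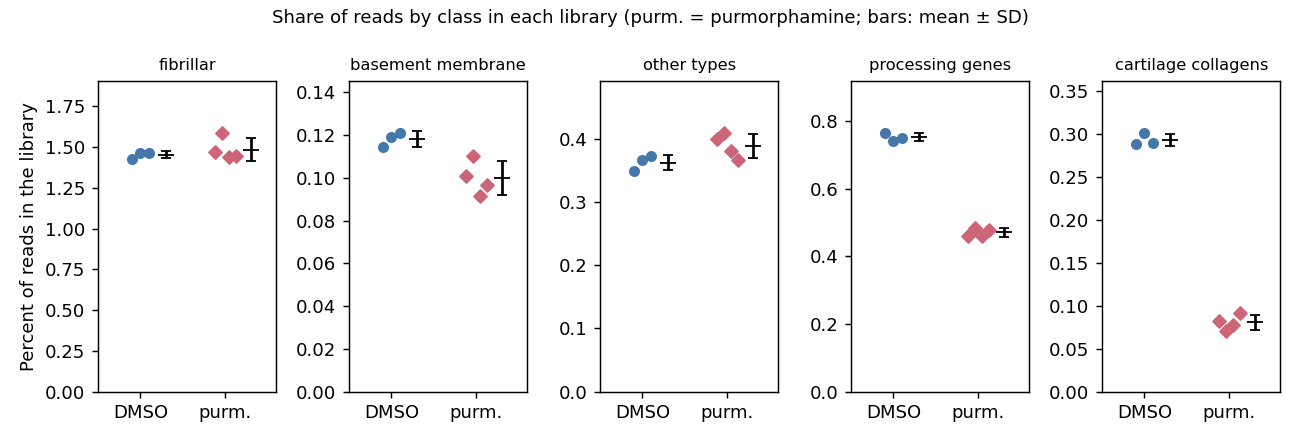
Percent of the reads of each library in fibrillar, basement membrane and other collagens, in processing genes and in the cartilage collagens that are not members (vertical axes, each from 0); circles are DMSO libraries, diamonds purmorphamine libraries and bars mean ± SD. The fibrillar shares overlap between the groups, whereas the processing genes went from 0.753% to 0.471%.

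Genes can be compared within a library, since a ratio of genes of the same library does not depend on scaling. Most of the ratios here set chains of the same collagen type against each other. The others set Col3a1, Lox and Serpinh1, which encode no chain of type I collagen, against Col1a2. The ratios were chosen after the values were seen and use reads per kilobase of exon from GENCODE M21, whose gene models need not be those of the authors. The ratio of Col1a1 to Col1a2 ran from 0.357 to 0.371 with DMSO and from 0.427 to 0.483 with purmorphamine. The type I helix holds more α1 than α2 chains. Col3a1 to Col1a2 ran from 1.42 to 1.46 and from 1.86 to 1.98. The ratio of Col4a1 to Col4a2 was lower with purmorphamine, at 1.33 to 1.41 against 1.51 to 1.59. Within type VI, Col6a3 to Col6a1 ran from 0.0728 to 0.0785 with DMSO and from 0.121 to 0.145 with purmorphamine. Col8a1 to Col8a2 fell from 1.11 to 1.15 with DMSO to 0.253 to 0.386, so that Col8a1 was above Col8a2 with DMSO and below it with purmorphamine. Col5a3 to Col5a1 went from 0.372 to 0.381 down to 0.250 to 0.271, and Col5a1 to Col5a2 overlapped between the groups (0.344 to 0.368 and 0.335 to 0.389). Lox to Col1a2 ran from 2.22 to 2.47 with DMSO and from 1.47 to 1.62 with purmorphamine, and Serpinh1 to Col1a2 from 0.592 to 0.637 and from 0.435 to 0.497.

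**Figure D5:**
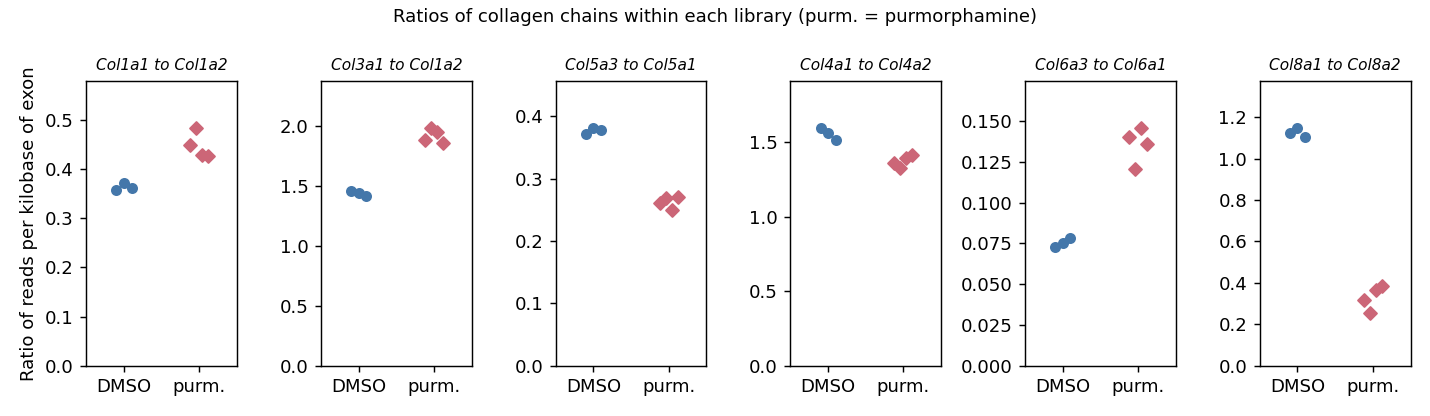
Ratios of collagen chains within each library, in reads per kilobase of exon (vertical axes, each from 0), for 6 pairs; circles are the 3 DMSO libraries and diamonds the 4 purmorphamine libraries. The groups are separate in all 6 pairs, up in Col1a1 to Col1a2, Col3a1 to Col1a2 and Col6a3 to Col6a1 and down in the others.

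Among the members with the highest levels, Lox and Col3a1 changed places, while Col1a2 kept its place behind them. As RPKM, Lox was the highest with DMSO at 973 ± 33.5 (SD, n = 3), followed by Col3a1 at 604 ± 6.01, Col1a2 at 419.6 ± 9.51, Col6a1 at 271 ± 7.27 and Serpinh1 at 258 ± 12.8, the last pair not differing beyond its spread. With purmorphamine Col3a1 came first at 686 ± 36.5 (SD, n = 4), then Lox at 552 ± 19.2, Col1a2 at 358 ± 11.5, Col6a1 at 275 ± 30.8 and Col5a2 at 181 ± 1.26. Serpinh1 was then at 171 ± 14.6 and Col1a1 at 160 ± 14.5, levels that did not differ beyond their spread. As RPKM, Lox thus lay above Col3a1 with DMSO and below it with purmorphamine. In reads Col3a1 was above Lox in both groups, with means of 83327 and 65391 with DMSO. The order with DMSO therefore rests on the exon lengths used, 9816 bases for Col3a1 and 4778 for Lox. These come from gene models that need not be those of the authors.

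Other genes of collagen biosynthesis, from a list that holds no member, were examined in the same libraries. Of 21 genes 19 were in the table and 18 were tested, with 3 higher, 13 lower and 2 not called, and a median log2FC of -0.24. Of all genes tested, 31.4% were called higher and 31.1% lower, with a median log2FC of 0.0038. P4hb, the β subunit of prolyl 4-hydroxylase and a disulfide isomerase, went from 17975 ± 718 to 12640.5 ± 463 reads, a log2FC of -0.56 (edgeR adjusted p = 3.81e-08). Fkbp10, a chaperone that assists lysyl hydroxylase, was lower by a similar amount, at 3037 ± 104 and 2125 ± 209 reads. Among the genes of the list with larger changes, chosen after their values were seen, Glt25d2, a galactosyltransferase of hydroxylysine, had 135, 149 and 139 reads with DMSO and 9, 7, 6 and 17 with purmorphamine, a log2FC of -3.88 (SE 0.206, edgeR adjusted p = 8.93e-11). The proteinases that remove the N-terminal propeptide moved in opposite directions. Adamts2 had 1685, 1802 and 1739 reads with DMSO and 1035, 1122, 959 and 987 with purmorphamine, a log2FC of -0.81 (SE 0.0541, edgeR adjusted p = 1.74e-09). Adamts14 had 61, 84 and 60 reads with DMSO and 739, 975, 678 and 633 with purmorphamine, a log2FC of 3.42 (SE 0.161, edgeR adjusted p = 2.07e-11). Bmp1, the proteinase of the C-terminal propeptide, rose from 2790.0 ± 110.3 to 3563 ± 424 reads. The third gene that rose was Ctsk, a collagen-degrading cathepsin, at 6.0 ± 1.73 and 15 ± 4.08 reads. It passed the filter on low counts only through the purmorphamine libraries, and with at least 10 counts in every library 2 genes of the list were called higher.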

How the data were processed

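Counts of reads per gene on the sense strand were used as deposited by the authors, who resampled the reads to equal numbers per library before counting (stranded total RNA depleted of ribosomal RNA, single reads). The submitters' processing notes name STAR 2.5.3a and mm9; the annotation release is not given in the sources used here. Columns were matched to samples by title, and 0 per-sample columns were left unused. From these counts, edgeR 4.0.16 (R 4.3.3) was run with TMM scaling, filterByExpr (minimum count 10, minimum total 15) and glmQLFit with glmQLFTest, without covariates, after the calculations had been tested on simulated data. Standard errors are the log2FC divided by the root of F. Alternatives were no TMM factors, DESeq2 size factors, DESeq2 1.42.0, limma-voom (limma 3.58.1, the study's test), other filters and thresholds, and each library left out.

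Positions, strands and exon lengths come from the GENCODE M21 annotation (GRCm38), in which the Ensembl identifiers of all 49 genes were found; the table's own coordinates, of mm9, were not used. Reads per library are printed for called genes with at least 1.5-fold change and a mean of at least 50 reads, and for Col1a1, Col1a2, Col3a1, Col5a1, Col5a2, Col4a1, Col4a2, Col6a1, Lox and Serpinh1. Members and lists were chosen with earlier results of these data known, so no test was made over a list. Permutation tests used log2 of TMM-scaled reads with 1 added, by the absolute difference of means over 35 assignments, where the smallest p is 0.0286.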

Additional observations from a re-analysis of the deposited data

Results flagged for a closer look

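Within the 4 purmorphamine libraries a single library stood apart for 2 of 45 values examined (36 genes and 9 shares of reads), where chance alone gives about 1 in 20, or 2.25. For Col18a1, the gap of replicate 6 to its nearest neighbour made up 0.940 of the range, with deposited counts of 144, 199, 143 and 141 in replicates 5 to 8. For Col6a3, replicate 8 lay below the others by 0.843 of the range, with counts of 6683, 6715, 6503 and 5869. Both were examined after TMM scaling.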

How the results depend on the processing

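No paired analysis was made, because no source used here states a pairing. DMSO libraries are numbered 2 to 4 and purmorphamine libraries 5 to 8, which does not settle whether they were paired. Of the 38 called genes, 32 kept direction and call under every alternative of scaling, tool, filter and left-out library that tested them. The other 6, Col5a1, Col4a5, Col18a1, Col6a2, Col14a1 and Col17a1, lost the call in at least 1 and none turned direction. Without TMM scaling the median of all genes moved by 0.0475, and 2 processing genes and 2 fibrillar collagens were higher and 3 basement membrane collagens lower. With at least 10 counts in every library, which leaves fewer genes to test, 0 basement membrane collagens were higher and 3 other collagens lower. With an adjusted p under 0.05, 3 basement membrane collagens were lower, and with type IV chains alone also 3. Requiring a change of 1.5-fold gave, by construction, 4 collagens higher and 7 lower, 0 and 8 processing genes, 0 and 1 fibrillar, 2 and 1 basement membrane, 2 higher other collagens, 2 lower genes of the wider list, and 977 and 936 of all genes.

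With single libraries left out, collagens called ran from 7 to 9 higher and 11 to 15 lower, processing genes from 1 to 2 and 14 to 14, fibrillar from 1 to 2 and 3 to 4, basement membrane from 2 to 2 and 3 to 5, other types from 4 to 6 and 4 to 6, the wider list from 3 to 3 and 11 to 13, and all genes from 3500 to 3961 and 3374 to 3793. The median log2FC ran from -0.14 to -0.10 for fibrillar, -0.18 to -0.11 for basement membrane, -0.56 to -0.48 for processing and -0.047 to 0.077 for other types. The last median also turned to 0.043 without TMM scaling, 0.012 with limma-voom, 0.028 without a filter and 0.085 with at least 10 counts in every library; it is the value of Col20a1, which was not called. The difference in share of reads ran from -0.0049 to 0.062 percentage points for all collagens and -0.0023 to 0.048 for fibrillar, turning only without purmorphamine replicate 6; from -0.022 to -0.016 for basement membrane, 0.019 to 0.034 for other types and -0.287 to -0.275 for processing genes. Genes not called that turned direction were Col20a1, at 0.043 without TMM scaling, 0.012 with limma-voom and 0.0011 without a filter, and from -0.14 to 0.15 with single libraries left out; Col7a1, from -0.026 to 0.36; and Col6a1, from -0.047 to 0.073. The cause was not tested. Depth limits the 7 tested genes with a mean under 50 reads, whose standard errors were 0.218 or more on the log2 scale.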
